A study of Mus musculus with 4 samples.

Results

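Processed pseudogenes were followed in chromatin-associated RNA of mouse embryonic stem cells. The members were chosen by annotation and by level: genes of the type processed_pseudogene in GENCODE M21 with a count of at least 40 summed over the 4 libraries. Of the 36918 gene identifiers in the count table, 2104 were processed pseudogenes, 688 of these had at least 1 count and 266 reached the minimum. By position, 237 of the 266 were intergenic, meaning that they overlapped no protein-coding gene, and 29 lay inside a coding gene, each on the strand opposite to it. The table listed only 30 genes under 1000 bp, so short copies, such as most of those from ribosomal protein genes, are not analysed here.

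The study asked how transcription responded when ZBTB21, a zinc finger protein of the ZBTB family that the study linked to cohesin, was removed. ChAR-seq sequences RNA purified from isolated chromatin, where nascent transcripts are enriched, and gave 2 untreated libraries and 2 ZBTB21_degron libraries. The ZBTB21_degron cells, clones of an OsTIR1 line with an auxin-inducible degron and GFP joined to ZBTB21, received 1 μg/ml doxycycline during 24 h, followed by 6 h of 500 μM IAA, an auxin. The study names untreated cells of the degron line for other assays, but for ChAR-seq the sources do not say whether they received doxycycline, so the drugs and the loss of ZBTB21 cannot be told apart.

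A processed pseudogene is a copy of a messenger RNA that was reverse transcribed and inserted into the genome by the enzymes of LINE-1 retrotransposons. It therefore lacks the introns of its parent gene and usually also the parent's promoter, and most copies have gathered substitutions and frameshifts. Highly expressed housekeeping genes, and genes active in germ cells and the early embryo, where a new copy can be inherited, left the most copies in mammalian genomes.

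Total counts ran from 4262382 to 6479842 per library, and a count of 0 in a library allows up to 3 counts, or 0.458 to 0.715 CPM (counts per 1000000 counts of the library). Stem cell genes were present, with 10 markers summing to 2263 to 2827 CPM, although Sox2 was at 0 in every library and Dppa5a at 1 count or less. Markers of other cells were low: 5 feeder genes summed to 31.9 to 40.1 CPM, 4 endoderm genes to 15.9 to 27.2 CPM and 4 mesoderm and neural genes to 1.68 to 4.88 CPM, with Mesp1 and Sox1 at 0 throughout. In both degron libraries the endoderm, feeder, and mesoderm and neural sums were lower than in both untreated ones, and the stem cell sum was higher. The mesoderm and neural sums were barely apart, at 3.10 CPM in untreated replicate 2 and 3.05 CPM in ZBTB21_degron replicate 2. Genes within a list differed. By edgeR, Pou5f1, Nanog, Klf4, Esrrb and Tfcp2l1 were higher, Tdgf1 was lower (log2 fold change -0.63, adjusted p = 1.5e-07), and Zfp42 and Dppa4 did not pass. Foxa2 had 0 counts in each untreated and 2 in each degron library. The part of these markers in the values below was not tested. Zbtb21 had 2, 0, 0 and 0 counts, so its own transcript checks nothing.

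A parent was taken as the coding transcript that aligned best, and 265 of the 266 members had one, from 255 different genes. In 264 of them the alignment ran straight through at least 1 exon junction of the parent, with a median of 11 junctions crossed and 46 at most, and no parent transcript had only 1 exon. By annotation 228 of the 265 had a single exon. The others, Gm4784 among them, had more, and their exons were joined before the alignment. The stretches below show crossed junctions for members described later. Each is 100 bases of the copy and of its parent's coding sequence (GENCODE M21 on mm10), centred on a parent junction. Among junctions whose stretch aligned without gaps, the one nearest to the middle of the coding sequence was taken. Insertions and deletions in the copies are therefore not shown. Bases that differ between copy and parent are in capitals. Within such a stretch, spliced RNA of the parent differs from RNA of the copy only at those capitals. Reads or mates that reach beyond it can also be placed through bases outside the stretch or in the intron.

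Impdh2-ps (chr8:100031327-100031426, plus strand) came from Impdh2, which makes the enzyme of the limiting step in guanine nucleotide synthesis, and in this stretch across exons 7 and 8, which are 85 bp apart in the genome, the 2 sequences are the same, so it is printed once.
Impdh2-ps: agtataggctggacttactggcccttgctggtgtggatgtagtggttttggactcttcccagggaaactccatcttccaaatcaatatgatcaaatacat

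Gm8276 (chr3:59432375-59432474, plus strand) came from Pabpc1, the cytoplasmic protein that binds poly(A) tails, and differed at 6 of 100 bases across exons 7 and 8, with a parent intron of 1115 bp.
Gm8276: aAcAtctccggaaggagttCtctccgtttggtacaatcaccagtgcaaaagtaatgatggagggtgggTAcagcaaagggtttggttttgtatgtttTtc
Pabpc1: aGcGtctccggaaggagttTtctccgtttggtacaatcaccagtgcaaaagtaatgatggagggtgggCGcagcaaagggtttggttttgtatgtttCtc

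Gm4784 (chrX:109389725-109389824, minus strand) came from Eif4b, a helper of the translation initiation helicase, and differed at 7 of 100 bases across exons 7 and 8, with an intron of 103 bp.
Gm4784: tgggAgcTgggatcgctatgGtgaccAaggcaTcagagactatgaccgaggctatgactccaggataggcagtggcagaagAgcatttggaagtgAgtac
Eif4b: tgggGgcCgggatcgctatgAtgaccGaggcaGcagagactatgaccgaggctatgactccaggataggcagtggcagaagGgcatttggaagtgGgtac

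Gm5712 (chr3:129434232-129434331, plus strand) came from Pou5f1, the pluripotency factor also called Oct4, and differed at 11 of 100 bases across exons 3 and 4, with an intron of 442 bp.
Gm5712: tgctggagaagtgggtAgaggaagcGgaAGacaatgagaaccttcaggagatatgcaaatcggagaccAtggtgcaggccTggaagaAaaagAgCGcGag
Pou5f1: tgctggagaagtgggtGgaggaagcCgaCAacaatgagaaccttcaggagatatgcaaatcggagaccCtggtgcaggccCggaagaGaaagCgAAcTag

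Members were close copies. Identity to the parent had a median of 93.4% (71.3% to 100%, quartiles 89.1% and 96.8%), against 87.4% for the 1276 listed pseudogenes with no count outside the same-strand cover of a coding gene. Of the pseudogenes with 70% to 80% identity, 0.61% of 326 reached 40 counts, and the share was 5.78% of 277 at 80% to 85%, 16.8% of 400 at 85% to 90% and 21.3% of 394 at 90% to 95%. Above 95% identity it was flat, with 25.7% of 206, 25.2% of 111 and 27.8% of 54 in classes of rising identity. Without a parent by alignment, 1 of 196 reached the minimum (Gm5380). The level of the parent went the same way: 1.24% of 243 copies reached 40 counts where the parent was under 1 CPM in untreated cells, 15.0% of 346 at 10 to 50 CPM and 23.6% of 106 at 300 CPM or more. Copies covered by a coding gene on the same strand were left out of these shares. For the parent's level, copies whose parent was so covered or not listed were left out too. These shares describe what the count minimum selected and were not tested. Only uniquely mapped reads were counted. Counts per gene still cannot tell RNA of the copy from spliced RNA of the parent that was placed on the copy.

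**Figure D1:**
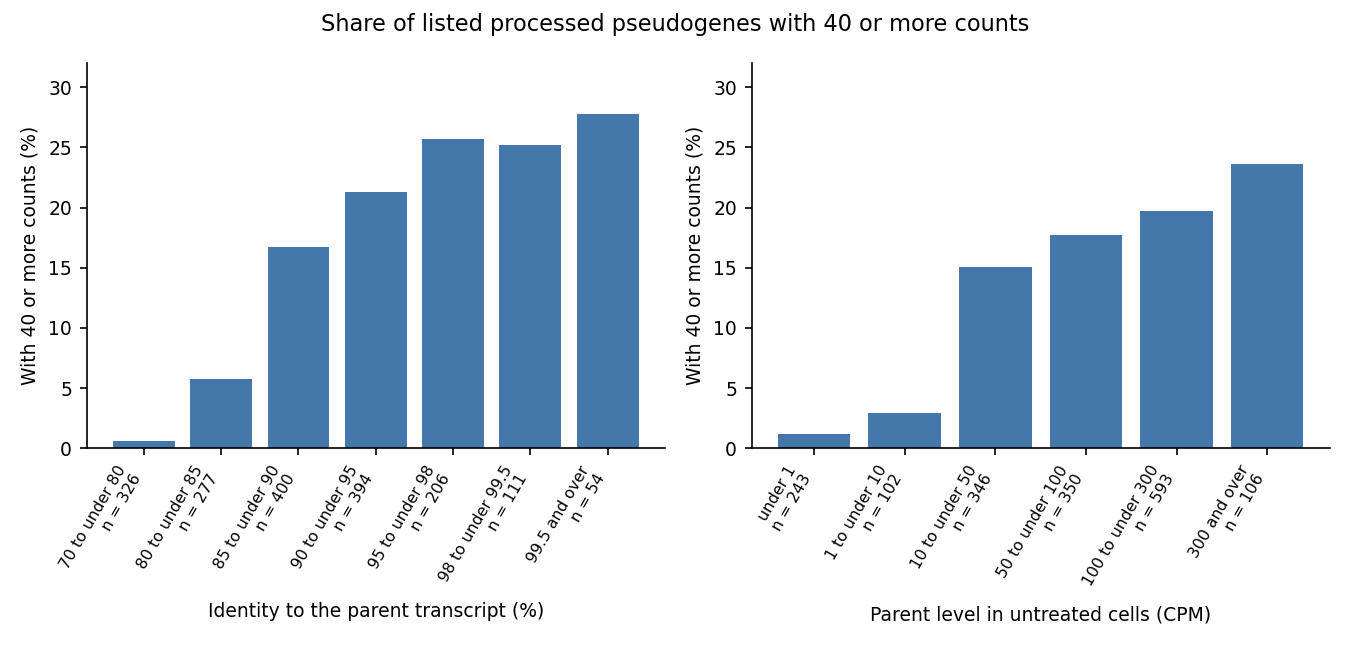
Bars give the percentage of the processed pseudogenes in the count table that reached 40 counts over the 4 libraries, by percent identity to the parent transcript (left) and by the parent's mean CPM in the 2 untreated libraries (right), with the number of pseudogenes under each bar. Copies covered by a coding gene on the same strand are left out, and on the right also copies whose parent was so covered or not listed. The share climbs from 0.61% to 27.8% with identity and from 1.24% to 23.6% with the level of the parent.

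All 140 listed pseudogenes covered by a coding gene on the same strand had 0 counts, whereas 29 of 205 on the opposite strand (14.2%) and 237 of 1753 intergenic ones (13.5%) were members. The X chromosome held 31 members of 248 listed copies (12.5%), chromosome 1 held 27 of 145 and chromosome 19 only 1 of 41. Members had a median length of 1494 bp (1002 to 30520 bp) and a median summed count of 153.5 (40 to 2212), with 14 above 1000. Just inside the minimum, Gm19026, Gm4810, Gm6018 and Gm7470 each had 40 counts, and just outside it Gm14245 and Gm20763 had 39.

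The most abundant member was Impdh2-ps. Its level was 106 and 120.1 CPM without treatment and 98 and 116 CPM with the degron induced. Gm9523, a copy of the S-adenosylmethionine synthetase gene Mat2a, had 103 and 118 CPM against 87.6 and 105 CPM. Gm5487, a copy of Mcm7, a subunit of the replicative helicase, had 89.0 and 87.9 CPM against 96.3 and 101 CPM. The groups overlapped for Impdh2-ps and Gm9523 and not for Gm5487. By edgeR, Gm9523 was lower, at a log2 fold change of -0.21 ± 0.08 (SE, adjusted p = 0.043, and 0.45 and 0.67 without untreated replicate 2 and ZBTB21_degron replicate 1), and Impdh2-ps (-0.09 ± 0.08, adjusted p = 0.43) and Gm5487 (0.15 ± 0.08, 0.12) did not pass. Next came Gm1840, described with the lower members. It was followed by Gm6580 (parent Senp3, a SUMO protease), Gm18949 (Eif4a2, an RNA helicase of translation), Gm12263 (Arih2, a ubiquitin ligase) and Gm7535 (Ncaph2, a condensin II subunit), whose group means lay between 65.9 and 75.5 CPM and which did not pass the test. Impdh2-ps, Gm6580, Gm18949 and Gm7535 were lower only under length-adjusted scaling (adjusted p = 0.0086, 0.021, 0.016 and 0.046).

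Counts per kb also follow from the choice of members, since copies below 40 counts were left out, and are given as a description. Per kb of gene body, counting from 300 bp after the start, members had a median of 125.4 counts over the 4 libraries and their parents 75.2, and 186 of 265 lay above their parent, with a median ratio of 1.76. Parent gene bodies are mostly intron, so the scale compares densities of reads along the gene, not amounts of messenger. In 12 pairs the copy also had more counts in all than its parent. Impdh2-ps had 2212 counts and Impdh2 1461, at 99.7% identity. Gm9816 had 1166 and Gps1, a subunit of the COP9 signalosome, 964. Gm9755 had 817 and Tufm, the mitochondrial elongation factor, 384, at 99.9% identity. In these close pairs the copy and the aligned parent transcript differ at few bases, and the division of counts between copy and parent is uncertain. How many reads could be assigned was not measured. Gm5200 had 371 counts and the keratin gene Krt18, 90.1% identical to it, had 81. Gm8146 had 441 where Haus5, of the augmin complex, had 6, and at 97.4% identity their division is uncertain too. For Gm5939 the parent Zc3h18 was at 0 in every library but is itself covered by another gene on its strand, the position in which listed pseudogenes also had no counts. These pairs were singled out after their values were seen.

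**Figure D2:**
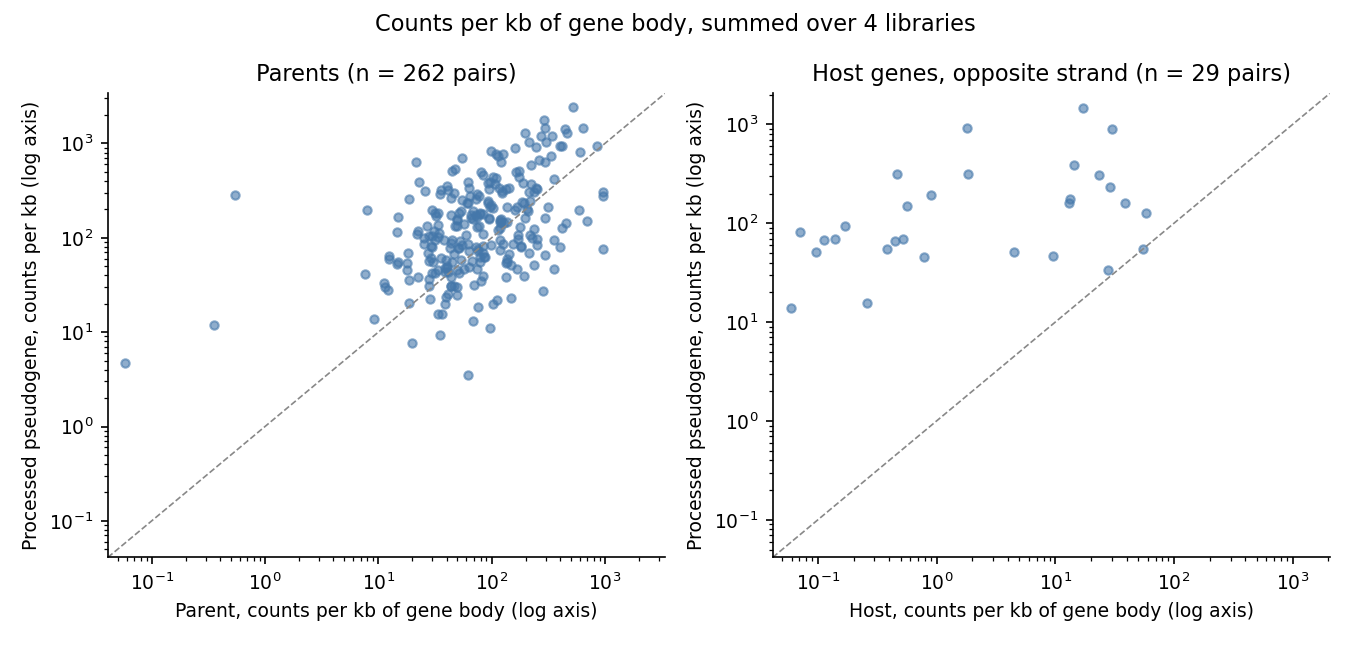
Each point is a member, with its counts per kb of gene body on the vertical axis and those of its parent (left, 262 pairs with a parent above 0) or of the coding gene around it on the opposite strand (right, 29 pairs) on the horizontal axis, all summed over 4 libraries on log axes. The dashed line marks equal density. The points on the right all lie above it, and the minimum of 40 counts sets a floor for short genes that exceeds most, not all, hosts.

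In the comparison of degron with untreated libraries, processed pseudogenes gave few calls. Of the 263 that passed the filter for testing, 11 were higher and 14 lower by edgeR's quasi-likelihood test at an adjusted p of 0.05 (4.18% and 5.32%), where 20.3% of all 14361 tested genes were higher and 19.8% lower, or 40.2% in either direction. The other 3 members were too low to be tested. DESeq2 called 2 higher and 1 lower, against 10.7% and 10.1% of all genes, and 46 members had an unadjusted edgeR p under 0.05. Of the members that edgeR called, DESeq2 gave no adjusted p for Gm11295, Matr3-ps2, Gm6353, Gm9144, Tsg101-ps and Gm7842, so it could not call them. Leaving out untreated replicate 2 or ZBTB21_degron replicate 1 reduced the lower calls to 8 and 7. CPM of the groups did not overlap for 63 members that were higher (24.0%) and 57 that were lower (21.7%), against 34.4% and 34.6% of all tested genes. The median SE of a log2 fold change was 0.25 for members and 0.13 for all genes, and among genes of any length within the members' range of counts, which had a median summed count of 400 against 155 for tested members, 18.5% were higher and 16.4% lower.

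Among the members, log2 fold changes had a median of 0.02 (quartiles -0.21 and 0.22), with 137 above and 126 below 0. The 646 other tested genes under 3000 bp had a median of 0.30, and 162 of them were higher (25.1%) and 11 lower (1.7%). Within the members' range of counts these were 24.3% and 1.64% of 610 genes, with a median of 0.30. The distance between the medians of members and other short genes was -0.28, and it lay between -0.22 and -0.37 with DESeq2 and its size factors, both other filters, the replicate block, length-adjusted scaling and each library left out. In log2(CPM + 0.5), the median of members stood 0.58 and 0.37 above that of other short genes in untreated replicates 1 and 2, and 0.30 and 0.23 above it in the degron libraries. The groups did not overlap, but untreated replicate 1 stood apart from the other 3 libraries. Under a scaling that removes the trend with gene length, the medians became -0.17 and 0.11, and 2 members were higher and 34 lower (0.76% and 12.9%), against 18.8% and 9.71% of all genes. The split of the calls between higher and lower thus depended on the scaling, and the distance to other short genes stayed at -0.28.

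**Figure D3:**
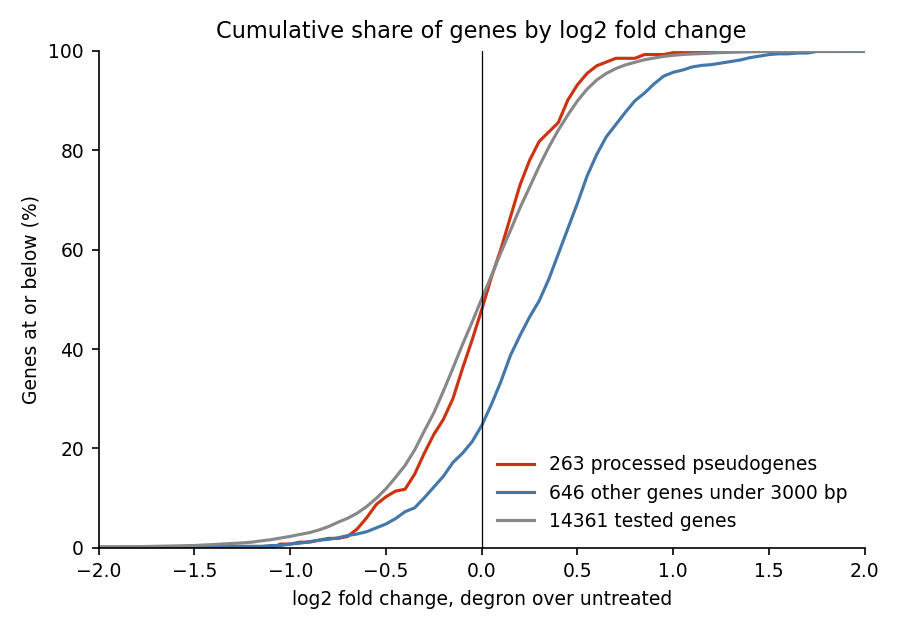
Lines give the percentage of genes at or below each log2 fold change (degron over untreated) for the 263 tested processed pseudogenes, the 646 other tested genes under 3000 bp and all 14361 tested genes. The pseudogene line crosses 50% near 0 (median 0.02) and the line of other short genes near 0.30.

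Shares of all counts were compared next. Members took 0.382% and 0.374% of counts without treatment, against 0.392% and 0.387% after degradation. Other tested genes under 3000 bp took 0.912% and 0.879% against 1.13% and 1.20%. Both shares were higher in each degron library than in each untreated one, by 0.0115 percentage points in the mean for members, and the exact permutation p was 0.33 (two-sided) for both, the smallest that 2 against 2 libraries allow. For the 29 members inside coding genes the shares overlapped, with 0.0436% and 0.0408% against 0.0420% and 0.0419% (exact permutation p = 1.0). The 6 listed mitochondrial genes, RNA from outside chromatin, took 0.0132% and 0.0152% on average.

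The highest change among the members was that of Gm8276 (ENSMUSG00000102550, chr3:59431537-59433348, plus strand, intergenic), the Pabpc1 copy shown above. It had 31.0 and 25.3 CPM in untreated and 69.1 and 61.2 CPM in degron libraries, with both degron libraries above both untreated ones. The log2 fold change was 1.21 ± 0.11 (SE, adjusted p = 1.2e-11, edgeR), and it passed in DESeq2 and with each library left out. Pabpc1 itself had 181 and 168 CPM against 179.9 and 173 CPM, a log2 fold change of 0.01 ± 0.06 (adjusted p = 0.88). The difference between copy and parent was 1.20 ± 0.13 on the log2 scale, at 92.4% identity.

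Gm4784 (chrX:109388744-109392165, minus strand) had 28.7 and 24.5 CPM against 37.8 and 49.0 CPM, a log2 fold change of 0.68 ± 0.13 (adjusted p = 4.4e-05). Its call also held in DESeq2 and with each library left out. Eif4b had 187 and 218 CPM against 216 and 248 CPM (0.19 ± 0.07, adjusted p = 0.022, and 0.39 and 0.34 without untreated replicate 1 and ZBTB21_degron replicate 2), and its groups overlapped. Gm6368 (chrX:141980175-141982321, plus strand), a copy of the chaperone gene Hsp90ab1, had 21.5 and 19.3 CPM against 28.5 and 30.3 CPM (0.52 ± 0.14, adjusted p = 0.0026). It held with each library left out and not in DESeq2 or under length-adjusted scaling. Hsp90ab1 was higher by 0.19 ± 0.06 (adjusted p = 0.0076, and 0.090 without untreated replicate 2), a direction that turned under length-adjusted scaling (-0.03).

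The other named members that were higher lost their call in DESeq2 (which gave no adjusted p for Gm9144), under length-adjusted scaling and without some libraries. Gm5184 (Mybbp1a, a nucleolar protein) had a log2 fold change of 0.43 (adjusted p = 0.0099), and p rose to 0.22 without untreated replicate 1 and 0.091 without ZBTB21_degron replicate 1. Gm9144 (Nfyc, a subunit of the CCAAT-binding factor) had 0.81 (0.017), with p of 0.19 and 0.15 without the same libraries. Gm6157 (Slc5a6, a vitamin transporter) had 0.59 (0.018), with 0.10 without untreated replicate 1 and 0.19 without ZBTB21_degron replicate 2. Gm6728, a copy of the coenzyme Q gene Coq2, went against its parent, with 5.73 and 8.34 CPM against 9.31 and 13.8 CPM where Coq2 had 60.3 and 62.7 CPM against 49.6 and 48.2 CPM. Its log2 fold change was 0.70 (adjusted p = 0.019, and 0.25 and 0.24 without untreated replicate 1 and ZBTB21_degron replicate 2), and that of Coq2 was -0.33 (0.0057, and 0.052 without untreated replicate 2). Gm9430 (Cdc6, which loads the replicative helicase) had 0.64 (0.021), with 0.25 and 0.052 without the same 2 libraries as Gm6728. In none of these did the groups overlap. Other parents in this set were higher like their copies, Mybbp1a by a log2 fold change of 0.28 (adjusted p = 0.00035), Cdc6 by 0.43 (0.0001) and Slc5a6 by 0.33 (0.039, and 0.36, 0.078 and 0.091 without untreated replicate 1, ZBTB21_degron replicate 1 and ZBTB21_degron replicate 2), and Nfyc was at -0.04 (0.63).

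Among lower members, Gm7537 (chr13:16638077-16639490, minus strand), a copy of the dipeptidase gene Cndp2, had 16.6 and 15.7 CPM against 11.1 and 9.15 CPM. Its log2 fold change was -0.65 ± 0.19 (adjusted p = 0.0050 by edgeR). The call held with each library left out and was lost in DESeq2 (adjusted p = 0.093). Cndp2 was at 0.12 ± 0.09 (adjusted p = 0.26). AC154486.3 (chr17:22777217-22807736, minus strand) had 20.4 and 24.3 CPM against 16 and 10.8 CPM, a log2 fold change of -0.70 ± 0.17 (adjusted p = 0.0013) that held in DESeq2 and with each library left out. At 30520 bp, 77.1% identity to Zfp986 and 75.2% covered by another gene on its own strand, it was the longest member, and how its reads divide between it and that gene is uncertain.

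Gm1840 (chr8:5639580-5641011, plus strand) fell together with its parent Gpi1, glucose-6-phosphate isomerase of glycolysis, from 96.2 and 88.4 to 69.6 and 79.1 CPM. Its log2 fold change was -0.32 ± 0.09 (adjusted p = 0.0021), and that of Gpi1 was -0.33 ± 0.05 (7e-07), from 488 and 461 to 376 and 382 CPM. The call of the copy was lost in DESeq2 (0.054), without untreated replicate 1 (0.056) and without ZBTB21_degron replicate 1 (0.12). Gm11295, a copy of the fatty acid elongase gene Elovl6, had 5.52 and 6.67 CPM against 2.59 and 3.25 CPM, a log2 fold change of -1.07 ± 0.32 (adjusted p = 0.0067, and 0.087 and 0.089 without untreated replicate 2 and ZBTB21_degron replicate 1). DESeq2 gave no adjusted p for Gm11295. Elovl6 was lower by a log2 fold change of -0.42 ± 0.04 (6.6e-11). In both pairs copy and parent had the same direction.

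Of the remaining named calls, Matr3-ps2 (Matr3, a nuclear matrix protein) had a log2 fold change of -0.97 (adjusted p = 0.0100), with p of 0.28 without untreated replicate 2 and 0.055 without ZBTB21_degron replicate 2. Gm8188 (Map3k7, the kinase TAK1) had -0.61 (0.011), with 0.16 and 0.20 without untreated replicate 2 and ZBTB21_degron replicate 1. Gm15066 (Eef2, the factor that moves the ribosome along messenger RNA) had -0.49 (0.015), with 0.097, 0.057 and 0.060 without untreated replicate 1, untreated replicate 2 and ZBTB21_degron replicate 2. DESeq2 did not call Gm8188 (0.15) or Gm15066 (0.16) and gave no adjusted p for Matr3-ps2. Eef2 itself was at -0.04 (adjusted p = 0.64). Matr3, at -0.28 (0.19), was not past the threshold and Map3k7, at -0.23 (0.019, and 0.27 and 0.23 without untreated replicate 2 and ZBTB21_degron replicate 2), was.

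**Figure D4:**
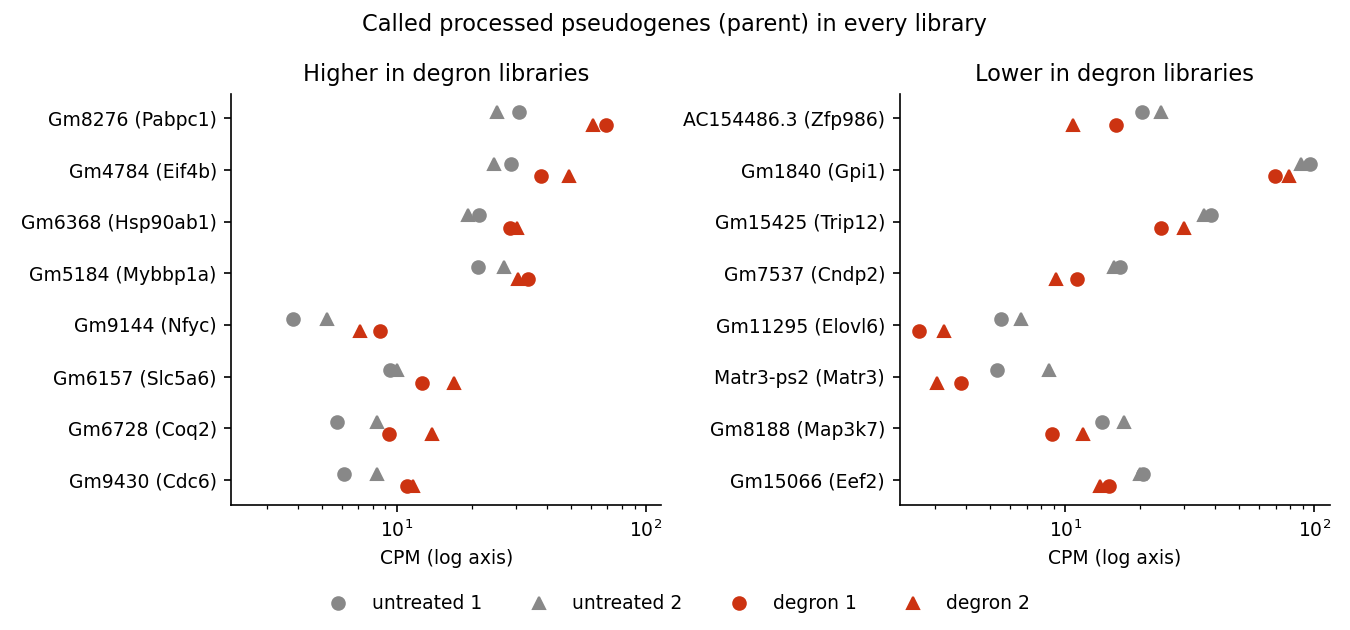
Points give CPM (log axis) in each of the 4 libraries for the 8 members with the smallest adjusted p among those higher (left) and lower (right) in degron libraries, with the parent in parentheses, grey for untreated, red for degron, circles for replicate 1 and triangles for replicate 2. The groups are apart for each member, with Gm8276 on the left at 25.3 to 31.0 against 61.2 to 69.1 CPM.

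Sorted by what the parents do, the groups held few calls, as did all members (4.18% higher, 5.32% lower) beside all tested genes (20.3% and 19.8%). Translation factors gave 8 members, of which 1 was higher (Gm4784) and 1 lower (Gm15066). RNA-binding proteins gave 6, with Gm8276 higher, and chaperones and cyclophilins gave 6, with Gm6368 higher. None of 3 cytoskeletal copies, 3 copies from the ubiquitin and proteasome system, the ribosomal copy Gm5835 (Rpl4), the mitochondrial ribosomal copy Gm13328 (Mrps5) or the histone copy H2afy3 passed the test. The 235 members with other parents held 8 higher and 13 lower calls. The lists of glycolysis genes (Gapdh, Pgk1, Eno1 and others, without Gpi1), respiratory chain genes and small GTPase genes gave no member.

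Gm5712 was the member from a pluripotency gene. It had 35.7 and 34.1 CPM in untreated and 31.3 and 37.8 CPM in degron libraries, which overlapped, with a log2 fold change of -0.03 ± 0.12 (adjusted p = 0.87). Pou5f1 was higher in both degron libraries, from 153 and 165 to 205 and 219 CPM (0.41 ± 0.06, adjusted p = 1.3e-06). The copy thus stood 0.44 ± 0.14 below its parent in log2 fold change, at 87.2% identity.

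Some parents had several copies among the members. Hsp90ab1 had 3 members: Gm6368 was higher (above), and Gm7002, with 26.1 and 27.6 CPM against 31.6 and 25.8 CPM, and Gm13498, with 7.43 and 6.91 against 6.56 and 6.92 CPM, overlapped between groups, with log2 fold changes of 0.11 ± 0.13 and -0.10 ± 0.25. Mybbp1a also had 3: beside Gm5184 at 0.43, Gm17230 was at -0.19 ± 0.17 and Gm5703 at -0.01 ± 0.23 (adjusted p = 0.37 and 0.99). The differences between copies of a parent were not tested. Of 5 further parents with 2 copies each, the more abundant copies were Gm11620 (Cactin, -0.02), Cct3-ps1 (the chaperonin gene Cct3, 0.21), Gm18986 (Clpb, a mitochondrial disaggregase, 0.36), Gm5120 (Gm38394, 0.34) and Gm5648 (Uhrf1, a maintenance factor of DNA methylation, -0.05). None of the 5 passed the test (adjusted p from 0.10 to 0.95 by edgeR), though Gm18986 did without untreated replicate 1 (0.046).

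Of the parents, 91 of 250 tested were higher (36.4%) and 44 lower (17.6%), against 20.3% and 19.8% of all tested genes. Tested parents had a median summed count of 2240, against 569 for all tested genes, so these shares do not rest on like counts. In 256 pairs with both tested, the median difference of log2 fold change, copy minus parent, was -0.08. It was -0.27 under length-adjusted scaling, -0.0388 without untreated replicate 1, -0.15 and -0.16 without untreated replicate 2 and ZBTB21_degron replicate 1, and -0.0082 for the 176 pairs with at least 90% identity. Where the parent was higher (97 pairs), 6 copies were higher and 2 lower, and the copies had a median of 0.10 and the parents 0.34. Where the parent was lower (44 pairs), 1 copy was higher and 5 lower, with medians of -0.13 and -0.28. In the other 115 pairs 4 copies were higher and 6 lower. Across the 256 pairs Spearman's rho was 0.23 and Pearson's r 0.22, a weak relation over genes of the same 4 libraries, given as a description. Parents under 10 kb had a median of 0.27 and their 34 copies a median of -0.01, and in the 8 pairs with the longest parents the medians were -0.30 and -0.25.

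**Figure D5:**
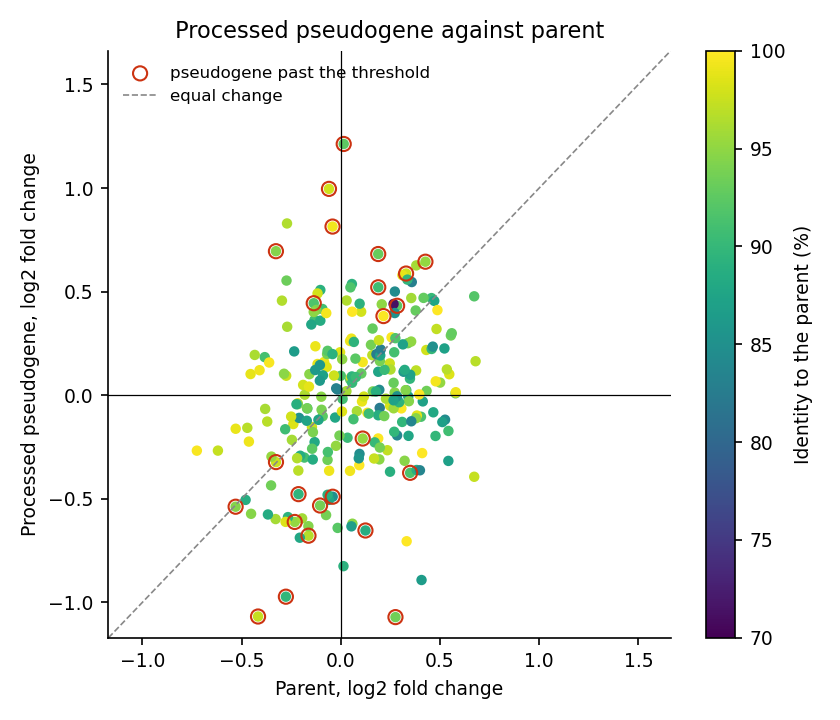
Each of 256 points is a tested pair, with the log2 fold change (degron over untreated) of the parent on the horizontal and of the processed pseudogene on the vertical axis, coloured by percent identity, with red rings around pseudogenes past the threshold and a dashed line for equal change. Spearman's rho over the points is 0.23, and Gm8276 lies at the top at 1.21 where its parent is at 0.01.

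Among the 29 members inside a coding gene, 1 was higher and 1 lower (3.45% each), with a median log2 fold change of -0.04, and among 234 tested intergenic members 10 were higher and 13 lower (4.27% and 5.56%), with a median of 0.02. The host gene lies on the other strand, and counts per kb had a median of 94.5 for the members and 1.82 for their hosts. The minimum of 40 counts on such short genes keeps every member above most hosts, so this describes the choice of members and is no result. In 13 of 29 the member had more counts in all. Gm18949, inside the lysosomal membrane gene Laptm4b, had 1473 counts against 781, and Gm7535, inside the formyl peptide receptor gene Fpr3, had 1360 against 152.

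Host and member were then compared in log2 fold change. In 23 pairs with both tested, 8 hosts were lower and 3 higher, and beside the 8 lower hosts 1 member was lower, with a median of -0.04 against -0.44 for those hosts. Pola1, the catalytic subunit of DNA polymerase alpha, went from 425 and 453 to 329 and 334 CPM (-0.40 ± 0.05, adjusted p = 1.7e-08), a direction that turned under length-adjusted scaling (0.018). Gm14780 within it, a copy of the tRNA synthetase gene Vars, had 36.5 and 38.4 CPM against 33.4 and 38.9 CPM, overlapping between groups (-0.06 ± 0.12, adjusted p = 0.71). The member that was lower with its host was Gm15425 (chr17:8564258-8568860, minus strand), a copy of the ubiquitin ligase gene Trip12 inside the phosphodiesterase gene Pde10a. It had 38.4 and 36.0 CPM against 24.3 and 29.9 CPM (-0.48 ± 0.13, adjusted p = 0.0024, and 0.12 without ZBTB21_degron replicate 1 and 0.070 in DESeq2), and Pde10a had 18.3 and 15.5 against 9.46 and 9.15 CPM (-0.86 ± 0.19, adjusted p = 0.00033, and 0.11 under length-adjusted scaling). Its parent Trip12 was at -0.21 (0.00018), a direction that turned under length-adjusted scaling (0.08). Gm12870, a copy of the clamp loader gene Rfc5 inside Yipf1, was at -0.02 where Yipf1 was at 0.30 (adjusted p = 0.93 and 0.0073, the latter 0.12 without untreated replicate 1). The member that was higher was Gm17816, a copy of Ubap2l inside Cenpo, at 0.44 (0.036, and 0.32 and 0.45 without untreated replicate 2 and ZBTB21_degron replicate 1), which was named after its value was seen. Across the 23 pairs the median difference, member minus host, was 0.27, and it was -0.0199 without untreated replicate 2, 0.13 without ZBTB21_degron replicate 2, 0.48 without untreated replicate 1 and -0.17 under length-adjusted scaling.

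Members close behind another gene were counted apart. Of the intergenic members, 16 began within 10000 bp after a coding gene on the same strand, and 2 of them (12.5%) passed the test, both lower, against 11 lower of 218 other tested intergenic members (5.05%) and 19.8% of all tested genes, with a median log2 fold change of 0.05 against 0.02 for the other 221.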

How the data were processed

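The 4 libraries were compared from raw counts per gene that the authors deposited, with no scaling. Per the study's methods and the submitters' processing notes, reads were trimmed with cutadapt 2.6, mapped to mm10 and to the fly spike-in genome and, where uniquely mapped and free of PCR duplicates, counted over gene bodies, leaving out the first 300 bp, with featureCounts 1.6.3. The methods name bowtie2 as the mapper and the notes STAR 2.7.6a, so which was used is not known. Strand setting and annotation release are not given in the sources used here. No spike-in scaling was applied here, and a shift shared by every gene therefore goes unseen. The authors tested with DESeq2.

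GENCODE M21 (mm10) matched 36770 of 36918 identifiers, and gave type and position. Inside a coding gene means covered over at least 90% of the length. Parents are the best blastn (2.17.0) match to a coding transcript, with at least 70% identity over at least 50% of the pseudogene. With edgeR 4.0.16 (R 4.3.3), genes were filtered by filterByExpr (minimum count 10, minimum total 15), scaled by TMM and tested by the two-sided quasi-likelihood F test, adjusted by Benjamini-Hochberg over 14361 genes at 0.05. The steps were tested on simulated data. CPM use the TMM-scaled library sizes. Fold changes are log2 of degron over untreated. Counts of the replicates of a group differed by more than sampling noise (chi-square over its degrees of freedom, 1.30 and 1.39). Whether they are separate cultures is not stated, so the spread behind each p-value may be technical. Floors cover counting error only.

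The members, lists and tests were chosen with earlier results of these data known. Named are the 8 smallest adjusted p in each direction, the 8 highest counts, the most abundant copy of each of the 8 parents with several, the 5 most abundant members inside genes, members from pluripotency parents, their parents and Zbtb21. Of these, 1 copy with its parent is not reported here. Alternatives were DESeq2 (1.42.0) size factors and Wald test, no filter, a stricter filter (mean count of 50), a replicate block, length-adjusted scaling (loess, span 0.3), each library left out, other count minimums and other parent rules. The comparison with other genes under 3000 bp across these settings was added after seeing the data. The base composition after each copy's end was not analysed here.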

Additional observations from a re-analysis of the deposited data

How the results depend on the processing

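DESeq2 size factors and the replicate block changed no call among 69 named genes that were tested. Same-numbered libraries did not deviate together (correlation 0.0239), and with the block 16 members were higher and 16 lower. DESeq2's Wald test gave 2 higher and 1 lower (intergenic 2 and 1, inside coding genes 0 and 0). Among 27 named members with an adjusted p, called by edgeR or not, that test ended 11 calls. It kept only those of Gm8276, Gm4784 and AC154486.3. Length-adjusted scaling gave 2 and 34 (intergenic 2 and 31, inside 0 and 3), moved the members' median to -0.17 and the median difference to -0.27 from the parent and -0.17 from the host, and turned Hsp90ab1 (-0.0296), Trip12 (0.0752) and Pola1 (0.018). Of members inside genes, 2 were higher without a filter, under the stricter filter (mean count of 50) and with the block. The difference to the parent was -0.0082 at 90% identity or more and 0.0075 for the 18 parents given by name. With each library left out, 9 to 11 members were higher and 7 to 12 lower (intergenic 8 to 10 and 6 to 11, inside 0 to 3 higher and 1 lower), and the median differences ran from -0.16 to -0.0388 (parent) and from -0.0199 to 0.48 (host). Low counts limit single members (median SE 0.25).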
